A study of Mus musculus with 6 samples.

Results

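The 41 genes described here are markers of microglia and macrophages, the phagocytes that settle the developing retina and brain. They were listed by name and not by a cutoff on measured values, but with earlier results of these data known. Every probe set annotated to exactly 1 of them was read. The array annotation paired 18193 genes with a probe set of their own, and all 41 listed genes were among them, with 67 probe sets in all. For a gene with several probe sets the brightest by its mean over the 6 arrays stood for the gene. The older symbol Emr1 was read as Adgre1. The arrays held cDNA from retinal ganglion cells (RGCs) of wild-type C57BL/6J embryos, 3 samples of ipsilateral RGCs, which project to the brain side of their own eye, and 3 of contralateral RGCs, which send their axons across the optic chiasm. The protocols give E16.5 and the sample records E16. In each of 3 rounds, rhodamine dextran laid on the severed optic tract was left to fill RGCs for 2 h. Retinas from 2 litters were pooled by side, and rhodamine-positive cells that excluded DAPI were sorted by FACS. Each sample is therefore a pool of embryos, the dye and not a genetic marker defined the cells, and the rounds sent to arrays were chosen by the study for their Zic2 enrichment on the ipsilateral side. The sort yielded fewer ipsilateral than contralateral cells, and all cDNA was amplified. Below, ipsilateral and contralateral RGCs stand for these sorted samples, and which cells within a sample held a given RNA was not measured.

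Microglia arise from yolk sac progenitors rather than from the neural lineage that makes RGCs. They depend on the receptor Csf1r, which responds to the ligands Csf1 and Il34, and on the transcription factors PU.1 (Spi1) and Irf8. In the developing retina they clear dying cells, sense nucleotides through P2ry12 and the neuronal chemokine Cx3cl1 through Cx3cr1, and signal through receptors that borrow the adaptors Tyrobp or Fcer1g.

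PU.1 binds purine-rich boxes with the core GAGGAA, which is a feature of many myeloid promoters. The core box was searched on both strands in the RefSeq promoter windows (assembly GRCm38.p6), which run from 250 bases before to 50 bases after a gene's start. A window was read for 30 of the 41 genes, and Csf1r was not among them. Windows on a single chromosome were left out for the 41 genes but kept among all genes. Of the 30, 19 held the box (63.3%), against 31.3% of 27025 genes. The box stood in 6 of 10 genes that rose in ipsilateral RGCs and in 13 of the other 20, among them Mrc1, which was not tested, so its presence did not separate the genes that rose from the others. The longer form GAGGAAGT, which contains the core box, was in 5 of the 30 (16.7%) against 3.69% of all genes, and the composite of an ETS and an IRF element, GGAANNGAAA, was in 2 of the 30 (6.67%) against 3.16%. These are matches of letters and not measured binding. The 80 bases that end just before the start are given for 4 genes with the box, 2 that rose (Cd53 and Laptm5) and 2 that differed little between the sides (Inpp5d and Trem2). Each reads 5′ to 3′ on the gene's own strand, and capitals mark the core box, written TTCCTC where it lies on the opposite strand.
Cd53, chr3:106790150-106790229, minus strand: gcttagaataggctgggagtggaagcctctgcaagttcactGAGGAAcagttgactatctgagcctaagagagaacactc
Laptm5, chr4:130913236-130913315, plus strand: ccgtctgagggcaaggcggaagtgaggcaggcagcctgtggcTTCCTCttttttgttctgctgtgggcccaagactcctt
Inpp5d, chr1:87620232-87620311, plus strand: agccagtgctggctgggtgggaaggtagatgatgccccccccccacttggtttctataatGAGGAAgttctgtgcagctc
Trem2, chr17:48346321-48346400, plus strand: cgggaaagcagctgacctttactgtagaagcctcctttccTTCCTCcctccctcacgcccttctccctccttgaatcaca

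Of the 41 genes, 12 rose in the ipsilateral RGC samples and none fell. These were the receptors Csf1r and Lair1, the adaptor Tyrobp, the microglial surface proteins P2ry12 and Fcrls and the Toll-like receptor partner Ly86. The others were the lysosomal and phagosomal proteins Laptm5 and Mpeg1, and Aif1, Lcp1, Arhgdib and Cd53 of the cytoskeleton and surface of blood-derived cells. The log2 differences of the 12 ran from 2.86 for Arhgdib to 5.68 for Csf1r. A gene was said to rise or fall where it changed by 2-fold or more with an adjusted p under 0.05 in limma, over all probe sets whose mean log2 value reached the 20th percentile (4.74). Of all 15346 genes tested in this way, 55 rose (0.358%) and 0 fell (0%), so these 12 made up 12 of the 55. With the round added as a block, 8 of the 41 were called, of which 7 were among these 12 and the other was Olfml3. The calls on P2ry12, Lair1, Arhgdib, Lcp1 and Cd53 were lost. Among the 41, 40 were tested and 1, the mannose receptor Mrc1, lay below the filter. The median log2 difference was 1.03 over the 40 and 0.98 over all 41, against −0.01 over all genes tested. All 12 are also in the study's own list of changed genes, which was drawn from the same samples and holds 17 of the 41. The shared direction of the 12 therefore carries no independent weight. That list also holds Cx3cr1, Olfml3, Slco2b1, Fcer1g and Fcgr3, which were not called here at their brightest probe set. The study stated the same cutoffs but listed more genes, by probe set, some of them lower in ipsilateral RGCs. The arrays report RNA of a mixed sample, in which fewer cells of a type and less RNA per cell cannot be told apart.

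**Figure D1:**
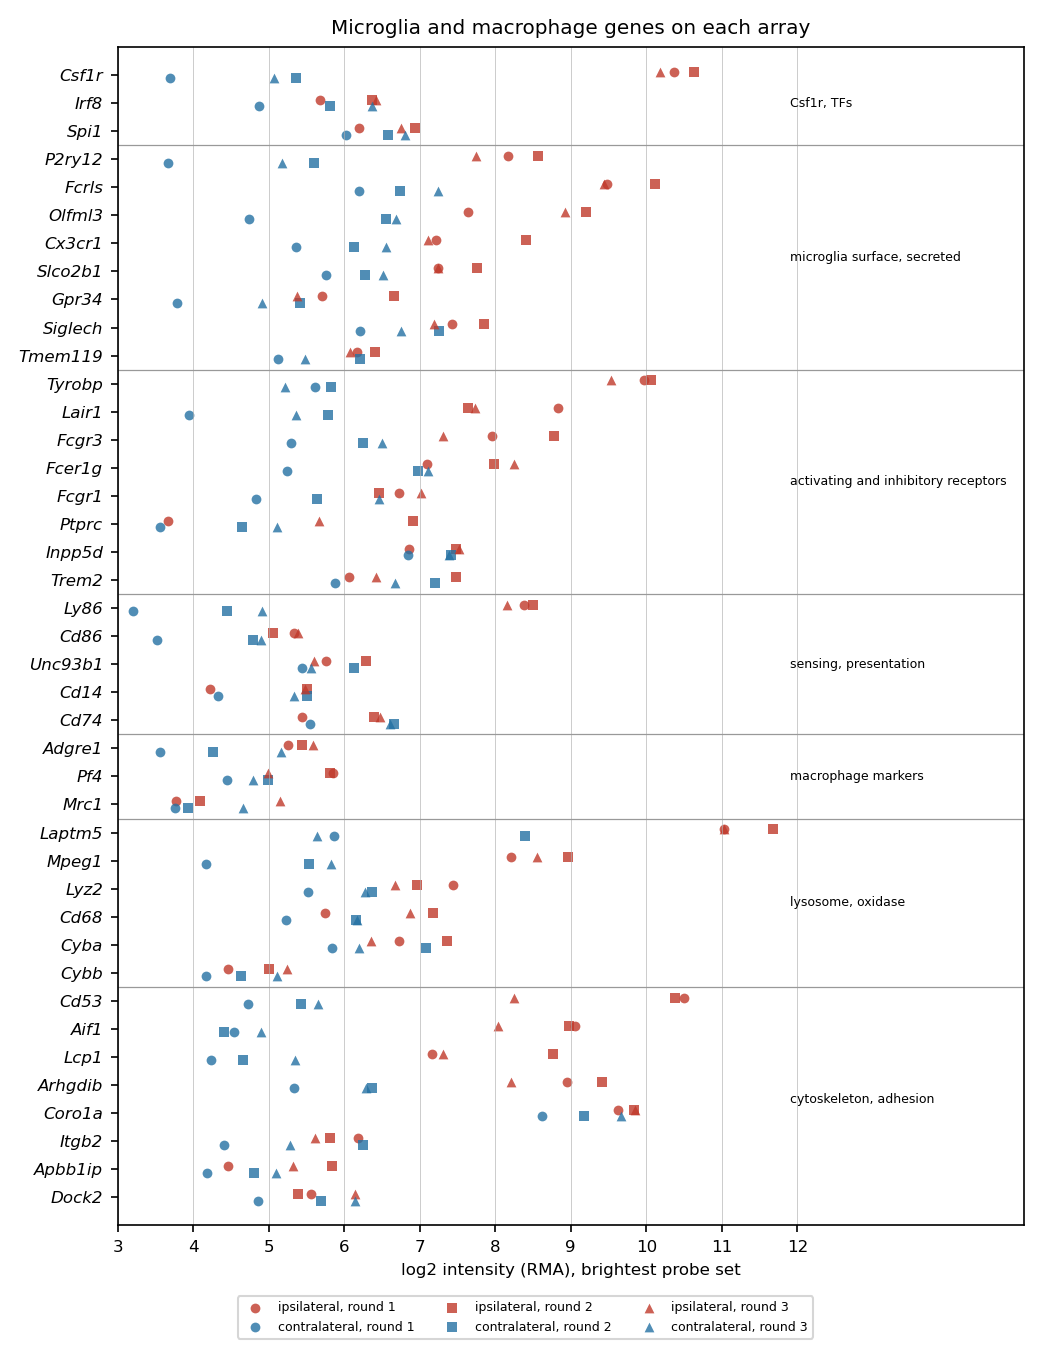
Log2 RMA intensity of the 41 genes on each of the 6 arrays, at the brightest probe set of each gene, with genes grouped by role. Red symbols are ipsilateral and blue symbols contralateral arrays, and the shape gives the round. Csf1r, Tyrobp, Laptm5 and Aif1 show a wide gap between the sides, whereas the symbols of Spi1, Trem2, Inpp5d and Cd74 overlap.

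Csf1r, the receptor that keeps microglia alive, had the largest difference of the 41. Its log2 intensity was 10.37, 10.64 and 10.18 in ipsilateral rounds 1 to 3 and 3.70, 5.36 and 5.08 in the contralateral samples of the same rounds. All 3 ipsilateral arrays lay close together and far above all 3 contralateral arrays. The means were 10.40 ± 0.23 and 4.71 ± 0.89 (SD, n = 3 each), a log2 difference of 5.68 with a standard error (SE) of 0.47 and a limma adjusted p of 0.000123. The contralateral mean was below the filter level of 4.74, and measured against that level the ipsilateral mean was at least 50.5-fold higher. Spi1, which encodes PU.1, gave 6.20, 6.94 and 6.76 in ipsilateral and 6.03, 6.57 and 6.81 in contralateral RGCs. These values overlapped, the log2 difference was 0.16 ± 0.41 (SE), and Spi1 was not called. Irf8, the interferon regulatory factor that acts with PU.1, differed by 0.47 ± 0.46 and was not called either, although its ipsilateral value was the higher in each round.

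Of the 8 surface and secreted proteins that mark microglia, 2 rose, and all 8 were higher on the ipsilateral side in every round. Their median log2 difference was 1.40, with a range from 0.61 (Tmem119) to 3.35 (P2ry12). P2ry12, the purinergic receptor that steers microglial processes, gave 8.17, 8.57 and 7.74 in ipsilateral and 3.67, 5.60 and 5.17 in contralateral RGCs. The lowest ipsilateral value thus exceeded the highest contralateral value by a wide margin, and the difference of 3.35 ± 0.51 (SE) was 10.2-fold with an adjusted p of 0.0124. With the round as a block the adjusted p of P2ry12 was 0.0675, so its call was lost. Fcrls, an Fc receptor-like protein of microglia, ran from 9.44 to 10.12 in ipsilateral and from 6.20 to 7.24 in contralateral RGCs, a 7.74-fold difference with an adjusted p of 0.00905.

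Olfml3, a secreted protein of microglia, showed the opposite dependence on the block. It gave 7.64, 9.20 and 8.92 in ipsilateral and 4.74, 6.55 and 6.69 in contralateral RGCs. Round 1 was the lowest on each side, and the within-round differences of 2.90, 2.65 and 2.23 were alike. The difference of 2.59 ± 0.57 (SE) did not pass without the block (adjusted p = 0.121) and did pass with it (adjusted p = 0.0297). The fractalkine receptor Cx3cr1 gave 7.21, 8.41 and 7.10 in ipsilateral and 5.36, 6.13 and 6.56 in contralateral RGCs. Its arrays did not overlap between the sides, yet the difference of 1.56 ± 0.48 (SE) did not pass the test (adjusted p = 0.584, and 0.185 with the block). The organic anion transporter Slco2b1 differed by 1.23 at its brightest probe set, the orphan purinergic-like receptor Gpr34 by 1.21, the lectin Siglech by 0.75 and the surface protein Tmem119 by 0.61, and none of these was called.

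Among the 8 genes of activating receptors, their adaptors and their counter-signals, 2 rose and the median log2 difference was 1.21. Tyrobp, the adaptor that carries the activation motif for Trem2 and related receptors, gave 9.97, 10.06 and 9.54 in ipsilateral and 5.62, 5.83 and 5.22 in contralateral RGCs. It was the steadiest of the 12 across rounds, with differences of 4.35, 4.23 and 4.32. The overall difference was 4.30 ± 0.40 (SE), or 19.7-fold, with adjusted p values of 0.000282 without and 0.00645 with the block. Lair1, an inhibitory collagen receptor, gave 8.84, 7.64 and 7.73 in ipsilateral and 3.95, 5.78 and 5.36 in contralateral RGCs. The groups did not overlap, but round 1 held both the highest ipsilateral and the lowest contralateral value, so its difference there was 4.89 against 1.86 and 2.37 in the other rounds. The call on Lair1 (3.04 ± 0.52, adjusted p = 0.0274) was lost with the block (adjusted p = 0.154) and when the contralateral sample of round 1 was left out (2.50, adjusted p = 0.0647).

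Trem2, the lipid-sensing receptor that signals through Tyrobp, did not follow its adaptor. It gave 6.06, 7.48 and 6.42 in ipsilateral and 5.88, 7.20 and 6.68 in contralateral RGCs. Both sides peaked in round 2, as did the array medians over all probe sets (6.70 ipsilateral and 6.65 contralateral). The values overlapped, with a difference of 0.07 ± 0.49 (SE). Whether these levels exceed background was not tested. The low-affinity Fc receptor Fcgr3 ran from 7.31 to 8.78 against 5.29 to 6.50, with no overlap and a difference of 2.01 ± 0.48 (SE) that did not pass (adjusted p = 0.196). The adaptor Fcer1g differed by 1.33 and the high-affinity Fc receptor Fcgr1 by 1.08, and in both genes the arrays of the sides overlapped. Inpp5d, the SHIP1 phosphatase that damps this signaling, had nearly equal means of 7.29 and 7.21.

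Of the 5 genes for sensing and presentation, Ly86 alone rose. Ly86 (MD-1), the partner of a Toll-like receptor homolog, gave 8.38, 8.49 and 8.15 in ipsilateral and 3.20, 4.45 and 4.91 in contralateral RGCs. The ipsilateral arrays were tightly grouped and the contralateral arrays were far below and more spread. The difference was 4.15 ± 0.47 (SE, adjusted p = 0.00135), and against the filter level the ipsilateral mean was at least 12.2-fold higher. Cd74, the invariant chain of MHC class II, was the only gene of the 41 that was lower on the ipsilateral side in every round. It gave 5.44, 6.39 and 6.47 in ipsilateral and 5.55, 6.66 and 6.61 in contralateral RGCs. The gap was small beside the spread between rounds, at −0.17 ± 0.46 (SE), and was not called. The LPS co-receptor Cd14 (0.01), the Toll-like receptor chaperone Unc93b1 (0.18) and the co-stimulatory ligand Cd86 (0.86) were not called either, and the sign of Cd14 turned to −0.03 when each array was centred on its own median.

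The 3 general macrophage markers held no call. Adgre1 (F4/80) differed by 1.1 and the platelet factor Pf4, which is also made by border macrophages, by 0.81. Mrc1 had means of 4.33 ± 0.72 and 4.12 ± 0.48 (SD, n = 3 each), both below the filter level, and was not tested.

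Of 6 genes for lysosomal proteins, lysozyme and the phagocyte oxidase, 2 rose. Laptm5, a lysosomal membrane protein of hematopoietic cells, gave 11.03, 11.67 and 11.03 in ipsilateral and 5.87, 8.39 and 5.64 in contralateral RGCs. The contralateral sample of round 2 stood well above those of the other rounds but still below every ipsilateral sample. The difference was 4.61 ± 0.62 (SE), or 24.4-fold, with adjusted p values of 0.00582 without and 0.0438 with the block. Mpeg1, a pore-forming protein of phagosomes, gave 8.21, 8.96 and 8.55 against 4.18, 5.53 and 5.83. Its groups were far apart, with a difference of 3.40 ± 0.48 (SE, adjusted p = 0.00805). The other 4 were not called: lysozyme Lyz2 differed by 0.98 with no overlap between the sides, the endosomal glycoprotein Cd68 by 0.75, and the oxidase subunits Cyba and Cybb by 0.45 and 0.27.

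The cytoskeleton and adhesion genes of leukocytes gave 4 calls of 8, with a median log2 difference of 1.74, and Aif1 alone kept its call with the round as a block. Cd53, a tetraspanin of leukocytes, gave 10.49, 10.38 and 8.25 in ipsilateral and 4.73, 5.43 and 5.65 in contralateral RGCs. The ipsilateral sample of round 3 lay far below the other ipsilateral samples, and the within-round differences fell from 5.77 and 4.96 in rounds 1 and 2 to 2.60 in round 3. Its difference of 4.44 ± 0.56 (SE) was called without the block (adjusted p = 0.00424) and lost with it (0.0842).

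Aif1 (Iba1), an actin-bundling protein that is the usual stain for microglia, gave 9.06, 8.97 and 8.04 in ipsilateral and 4.54, 4.41 and 4.90 in contralateral RGCs. The contralateral arrays were the tightest of any called gene and all lay near the filter level. The difference was 4.07 ± 0.42 (SE, adjusted p = 0.000725), at least 15.5-fold against that level. Lcp1, the leukocyte plastin, gave 7.17, 8.77 and 7.31 against 4.24, 4.66 and 5.34. Arhgdib, a GDP-dissociation inhibitor of blood cells, ran from 8.21 to 9.42 against 5.34 to 6.36. Neither overlapped between the sides, and both were called (8.02-fold, adjusted p = 0.0231, and 7.27-fold, adjusted p = 0.0168) but lost with the block (0.0843 and 0.0688). Lcp1 was also lost when the contralateral sample of round 1 was left out (2.75, adjusted p = 0.0647). Coro1a, an actin-binding coronin, was bright on both sides (9.77 and 9.16) and differed by 0.61. The integrin chain Itgb2 differed by 0.56, its adaptor Apbb1ip by 0.50 and the Rac activator Dock2 by 0.13, and none of these 3 was called.

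**Figure D2:**
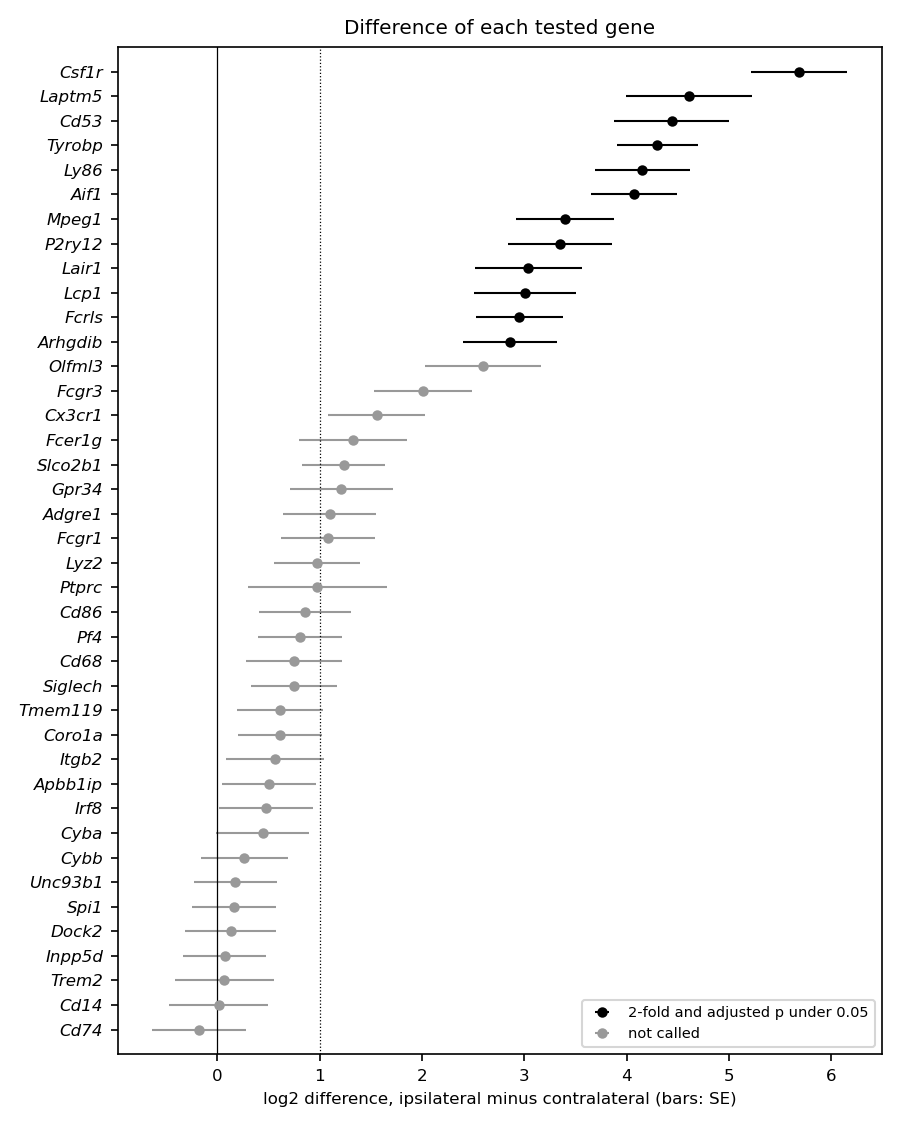
Log2 difference, ipsilateral minus contralateral, of each of the 40 tested genes at its brightest probe set, with bars of 1 standard error from limma. Filled black points are the 12 called genes, from 2.86 to 5.68, and the dotted line marks a 2-fold difference. The other 28 run from 2.59 (Olfml3) down to −0.17 (Cd74).

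The 28 tested genes that were not called were also higher on average in ipsilateral RGCs, except Cd74. Of all 40, 39 were higher in ipsilateral RGCs on average and 34 were higher in every round, against 17.6% of all genes. In 19 of the 40 every ipsilateral array exceeded every contralateral array, against 3.84% of all genes. These counts over the 40 include the 12 called genes, each of which was higher in every round with no overlap between the sides. The genes were also chosen with earlier results known, so the counts carry no independent weight. A 2-fold or larger difference was seen in 20 of the 40, of which 8 were not called, and 12 differed by less than 1.5-fold in either direction. The adjusted p values of the 28 ranged from 0.121 to 1.0. Of those 28, 13 had both means below the median of all probe sets, and 6 had a contralateral mean below the filter level, as 3 of the called genes had. The median SE was 0.48 for the 12 and 0.46 for the 28 without a block, and 0.35 and 0.20 with the round as a block. With the round as a block, 8 of the 40 were called and 0.319% of all genes.

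The size of the difference varied by round. Over the 40 genes, rounds 1, 2 and 3 had median differences of 1.79, 1.02 and 0.55, whereas over all genes they were 0.01, −0.02 and −0.03. Round 3 gave the smallest difference for 27 of the 40 and round 1 the largest for 26. Round 3 nevertheless had 36 of the 40 higher on the ipsilateral side, 14 of them by 2-fold or more, compared with 26 in round 1. For the 12 called genes the median level in ipsilateral RGCs was 9.0, 9.20 and 8.23, and in contralateral RGCs it was 4.39, 5.57 and 5.35. The contralateral sample of round 1 was the highest of the contralateral samples for none of the 40, and that of round 3 was the highest for 22. The arrays of round 1 were also the lowest as a whole, with medians over all probe sets of 5.81, 6.70 and 6.33 in ipsilateral and 5.80, 6.65 and 6.26 in contralateral samples. After each array was centred on its median, the contralateral sample of round 3 was the highest for 27 of the 40 and that of round 1 for 4. The part of this array-wide shift in the differences between rounds was not tested.

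**Figure D3:**
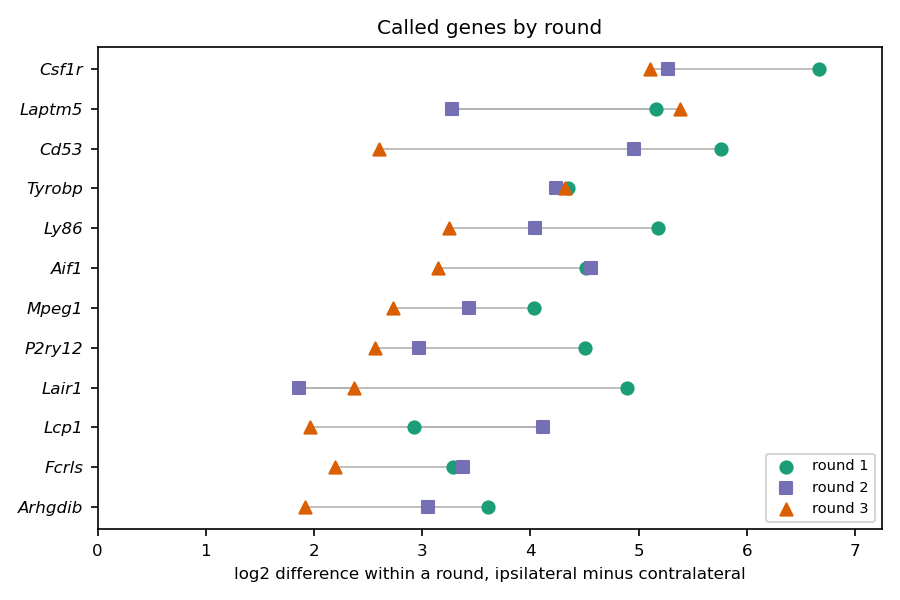
Log2 difference within each round, ipsilateral minus contralateral, for the 12 called genes, with 1 symbol per round joined by a line. Every symbol lies above 1.8, and round 3 (triangles) is the smallest for most genes, while Tyrobp is nearly equal in the 3 rounds and Laptm5 is largest in round 3.

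Probe sets of the same gene did not always give the same difference. Of the 41 genes, 24 had 1 probe set and 17 had several. Over the 60 member probe sets tested, 15 rose, from 14 genes, and 0 fell. Csf1r was called at a second probe set (3.22, adjusted p = 0.0059) and was higher in every ipsilateral array at the third (1.86). For Laptm5 the other 4 probe sets differed by 0.01 to 0.83, and the brightest is of the x_at type, whose probes can match other transcripts as well. When all probe sets of the gene were averaged, Laptm5 was no longer called (1.27, adjusted p = 0.413). The second probe set of Cd53 was below the filter and differed by 0.11, and those of Lair1 differed by 0.20 and 1.23, whereas both probe sets of Lcp1 gave similar differences (3.0 and 2.49).

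Slco2b1 and Ptprc were called only at a probe set that was not their brightest. A second probe set of Slco2b1 gave 7.61, 9.17 and 7.77 in ipsilateral and 3.91, 5.96 and 4.92 in contralateral RGCs, a difference of 3.26 with adjusted p values of 0.0274 without and 0.0218 with the block. Its brightest probe set gave 7.24, 7.76 and 7.24 against 5.75, 6.28 and 6.52 (adjusted p = 0.751). Every ipsilateral array was above every contralateral array at both of these probe sets. At the third probe set of Slco2b1 the sides overlapped, with a difference of 0.10 on average and −0.12 in round 3. Ptprc (CD45), the phosphatase found on all nucleated blood cells, gave 6.03, 6.58 and 5.95 against 2.66, 3.93 and 4.33 at its second probe set (2.55, adjusted p = 0.0448, and 0.0828 with the block). At its brightest it gave 3.67, 6.91 and 5.67 against 3.56, 4.65 and 5.11, where the ipsilateral sample of round 1 was as low as the contralateral samples (0.98 ± 0.68, SE).

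**Figure D4:**
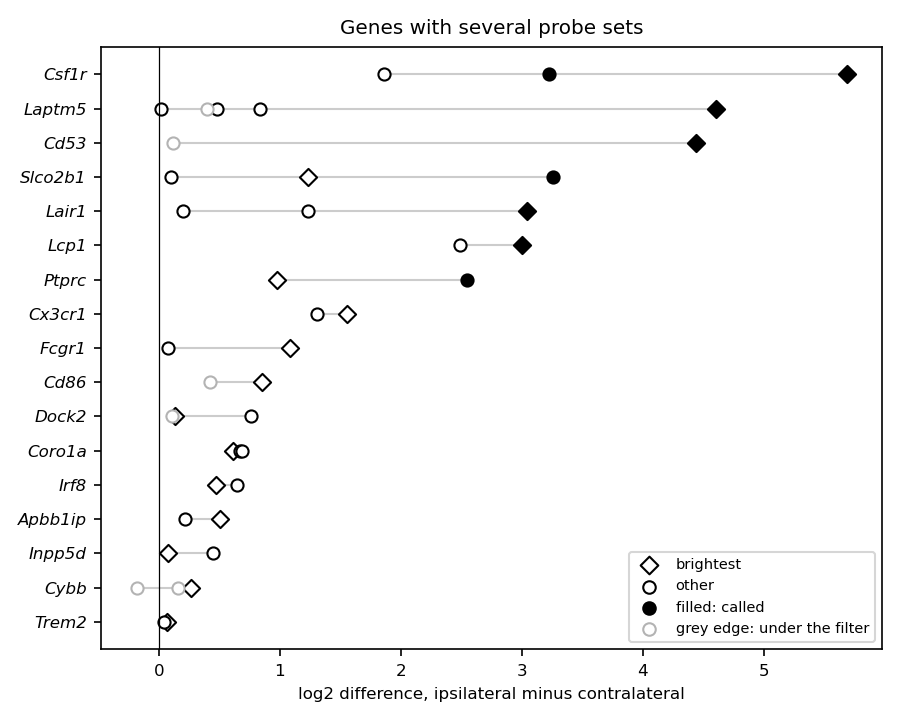
Log2 difference, ipsilateral minus contralateral, at every probe set of the 17 genes that had several. Diamonds are the brightest probe set and circles the others, filled symbols were called, and a grey edge marks a probe set below the filter. Csf1r, Laptm5, Cd53, Slco2b1 and Lair1 spread over more than 2.8 log2 units, and Coro1a, Trem2 and Irf8 over less than 0.2.

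The ligands and signaling partners of these receptors were read in the same fit. None of the 5 ligand genes tested was called at its brightest probe set. The Csf1r ligand Csf1 gave 7.14, 8.01 and 7.89 in ipsilateral and 6.87, 7.87 and 7.72 in contralateral RGCs at its brightest probe set, a difference of 0.19. A dimmer probe set of Csf1 gave 5.85, 7.57 and 7.07 against 4.31, 5.46 and 5.58, with no overlap between the sides. Its difference of 1.71 ± 0.51 (SE) was 3.27-fold and not called (adjusted p = 0.547, and 0.0595 with the block), and the remaining probe sets differed by 0.31 and 0.42. The second Csf1r ligand, Il34, was below the filter and not tested, with 3.40, 3.91 and 4.49 against 3.51, 3.79 and 4.57. The Cx3cr1 ligand Cx3cl1, a neuronal chemokine, gave 6.39, 7.45 and 6.87 against 6.44, 7.17 and 6.97, a difference of 0.04 at its brightest probe set. Among other myeloid transcription factors 2 of 7 rose, Sall1 (3.34, adjusted p = 0.00438), which maintains microglial identity, and Maf (2.63, adjusted p = 0.0259). Of the complement C1q chains and the lysosomal protease Ctss, genes that microglia express strongly, 3 of 4 rose: C1qb by 5.88, Ctss by 5.29 and C1qc by 4.40, while C1qa (2.67, adjusted p = 0.0794) was not called. None was called among 5 MHC class II genes (median 0.18), 3 oxidase partners (0.82), 4 signaling enzymes (0.19) or 4 partner receptors (0.27). The sides did not overlap for the oxidase partners Ncf1 (1.80, adjusted p = 0.603, and 0.0602 with the block) and Rac2 (0.82). Nor did they for the partner receptor Sirpa (1.20), while the other tested genes of these lists overlapped.

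Markers of other cells that the sort could hold were read beside the 41. None of 5 tested markers of border macrophages and monocytes was called, and their median difference was 0.61, against −0.02 over all 9 such markers with a probe set. F13a1 differed by 0.26, 2.64 and −0.06 in rounds 1 to 3 and Lyve1 by 0.33, 1.70 and −0.04, so their means of 0.95 and 0.66 came mostly from round 2, and the contralateral mean of F13a1 lay below the filter level. Markers of other leukocytes (4 tested, median −0.11), of endothelium and pericytes (8 tested, −0.00), of red blood cells (3 tested, 0.08) and of pigment cells (3 tested, −0.04) held no call either. Of 9 tested retinal progenitor genes 2 rose, Fabp7 by 2.75 and Sox2 by 2.68, and both calls were lost with the block. In 7 of the 9 every ipsilateral array exceeded every contralateral array, against 3.84% of all genes, and the median difference of the 9 was 2.07. The progenitor median was 1.23, 1.63 and 2.55 in rounds 1 to 3, an order opposite to that of the microglial genes. Of 14 immediate early genes 2 rose (Egr2 by 4.14 and Zfp36 by 3.16), and Fos and Atf3 were gained with the block (adjusted p = 0.049 and 0.0412). In 10 of the 14 every ipsilateral array exceeded every contralateral array, against the same 3.84% of all genes. The median difference of the 14 was 1.48, and by round it was 1.80, 0.50 and 1.76. All 10 tested pan-RGC genes were lower in ipsilateral samples in every round, against 3199 of all 15346 genes. Their median difference was −0.36, and none was called. In 3 of the 10 every contralateral array exceeded every ipsilateral array, against 304 of the 15346. Their median levels ran from 11.22 to 11.52 in ipsilateral and from 11.58 to 12.10 in contralateral samples, so the RGC markers were bright on both sides. The part of these other cells, or of the immediate early response, in the levels of the 41 genes was not tested.

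**Figure D5:**
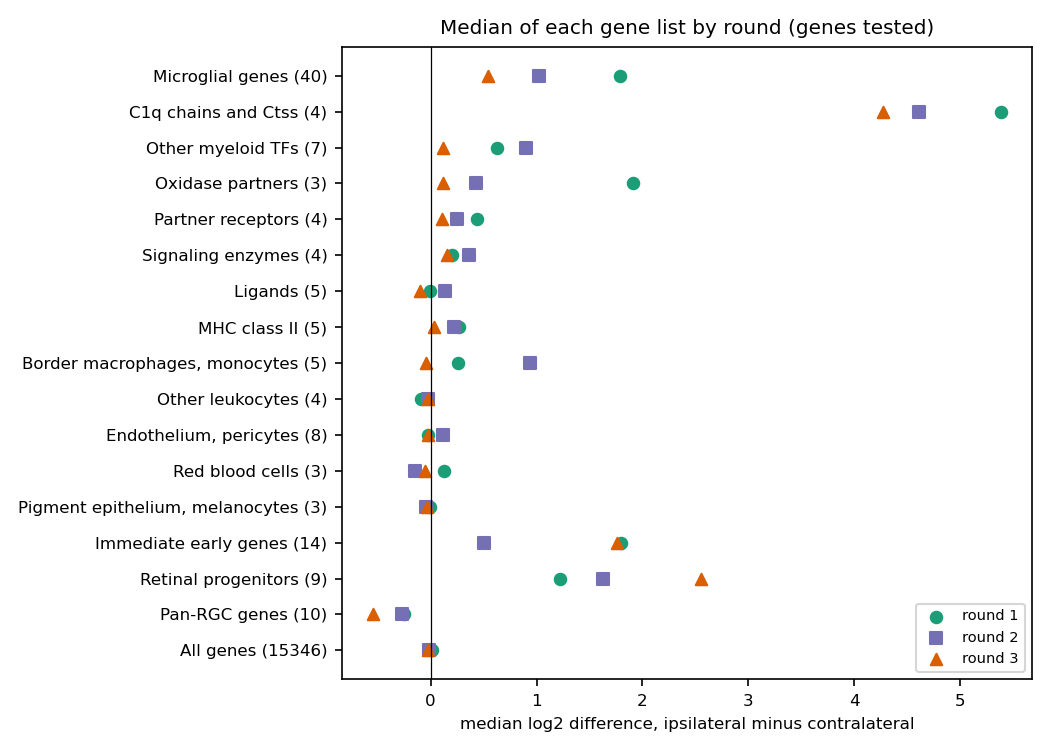
Median log2 difference, ipsilateral minus contralateral, of each gene list in each round, with the number of tested genes in parentheses. The 40 microglial genes and the C1q and Ctss list are highest in round 1 and lowest in round 3, retinal progenitor genes run the other way, and all 15346 genes sit near 0.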

How the data were processed

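RNA from 6 sorted samples, 3 per side, was amplified with Ovation Pico WTA, biotin-labeled and hybridized to Affymetrix mouse genome arrays. The deposited values are log2 intensities that the authors made with RMA (no version given) in Affymetrix Expression Console 1.1, per the labels; whether the arrays were normalized together is not given in the sources used here. RMA summaries compress low intensities, so differences that start near the filter level can be understated. From 45101 probe sets, 64 controls and those with a mean under the 20th percentile were left out, which left 36029. Probe sets naming several genes (932) or none (9160) were tested and counted as no gene. Sides were compared with limma 3.58.1 (lmFit, eBayes) in R 4.3.3, with Benjamini–Hochberg adjustment over all probe sets. The main fit had no block because the methods name no paired test, although the study describes the samples of a round as paired. The fit was tested on simulated data. Replicate numbers mark rounds that the methods describe as treated together, and deviations from group means correlated at 0.51, 0.54 and 0.61 within rounds and from −0.35 to −0.21 across them, so the numbers pair the samples. Without the block the p-values measure the spread between rounds within a side, and with it the spread of the within-round differences. In both fits limma moderates that spread across probe sets, and the number of arrays limits the precision. The SEs given for single genes are from the fit without the block, so they include shifts that both sides of a round share. Over all tested probe sets the median SE was 0.44 without the block and 0.17 with it. Each gene of the list may be named, with full values for Csf1r, the called genes with the 10 largest differences, genes lower in every round, genes called only with the block or at another probe set, and 3 ligands; from other lists, called genes and up to 3 with the largest difference. Values per array for Cx3cr1, Spi1, Trem2 and a dimmer probe set of Csf1, and the names Fos and Atf3, were added after their values were seen. The members and lists were chosen with earlier results of these data known. Alternatives were the block, other filters, normalizations, weights and tests, the mean of all probe sets, and leaving out each array. The protein sequences of Tyrobp and Fcer1g were not analysed here, and some genes of the other lists are not reported here.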

Additional observations from a re-analysis of the deposited data

How the results depend on the processing

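Against 12 genes called higher of 40, the fit with the replicate block called 8: P2ry12, Lair1, Arhgdib, Lcp1 and Cd53 were lost and Olfml3 was gained. Other settings with an adjusted, moderated test called 11 to 15, and an unadjusted p with a 2-fold change called 20. An unmoderated test called 0 after adjustment and 16 before it. Leaving out each array in turn gave 10 to 13 calls, with Lair1 and Lcp1 (2.75, adjusted p = 0.0647) lost without the contralateral sample of round 1, and a median difference of 0.69 to 1.31 against 1.03. A filter at the 50th percentile left 23 of the genes, with a median of 2.59 and 21 higher in every round, because it removes dim genes. Array weights gave a median of 0.61. Genes near 0 changed sign: Cd14 to −0.0065 with a second quantile normalization and −0.03 with median centring, and Spi1 to −0.0040 and Trem2 to −0.20 with array weights. Leave-one-out ranges of these and similar genes were −0.54 to 0.16 for Cd74, −0.34 to 0.38 for Trem2, −0.11 to 0.29 for Inpp5d, −0.35 to 0.44 for Cd14, −0.026 to 0.39 for Unc93b1, −0.22 to 0.42 for Dock2 and −0.059 to 0.38 for Spi1. The cause of these changes was not tested. The 3 arrays per side limit what could be called. Of the 28 genes not called, 13 had both means below the median of all probe sets. The part of dim signal in the calls was not tested.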
